A study of Mus musculus with 12 samples.

Results

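The loci described here are the surroundings of 7 mouse genes, Epha4, Pax3, Ihh, Wnt6, Shh, Lmbr1 and Myc, which serve as models for how domain boundaries steer enhancers. A CTCF peak was assigned to these loci when its summit lay in the body of one of the genes or within 100 kb of it in the mm10 GENCODE annotation. After the peak lists were merged, 61 of 56248 CTCF sites met this rule. Within the windows, Epha4 had 6 sites, Pax3 had 4, Ihh had 17, Wnt6 had 20, Shh had 6, Lmbr1 had 7 and Myc had 4. The windows of Ihh and Wnt6 overlap on chromosome 1, and 3 sites belong to both.

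CTCF ChIP-seq was performed on brain, heart and lung of C57BL/6 embryos (C57BL/6 N in the study's methods) at E18.5. One genotype was wild type (Ctcf+/+) and the other was homozygous for the R567W change, introduced by CRISPR/Cas9 (Ctcf R567W/R567W). Each organ and genotype had 1 ChIP library, so 6 peak lists were compared, and chromatin of the human line HEK293T had been added to every ChIP as a spike-in. Peak lists carry no spike-in factor, the number of embryos behind a library was not given in the sources used here, and a peak list holds no expression with which to check the organ label. Whole organs mix many cell types, and limb, the tissue in which several of these enhancers act, was not among them.

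CTCF binds DNA through a row of zinc fingers, and CTCF bound at a domain boundary halts the cohesin complex that extrudes chromatin loops. Pairs of sites whose motifs face each other tend to anchor such loops. Epha4 encodes an ephrin receptor, Pax3 a paired-box transcription factor of the neural crest and muscle lineages, Ihh the hedgehog ligand of cartilage growth, and Wnt6 a secreted WNT ligand. When the boundaries that separate them are deleted or inverted, limb enhancers of Epha4 reach the neighbouring genes and digits are malformed. Shh, the hedgehog ligand of limb and neural tube, is driven in the limb bud by an enhancer inside intron 5 of Lmbr1, and Myc, a growth-promoting transcription factor, has a CTCF site just upstream of its promoter that meets distant enhancers. All of these statements are background, and none was measured in these libraries.

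The sites are shown here by the sequence that carries the CTCF core motif, so that the binding differences described further on can be set beside the bases bound. Each run is read 5′ to 3′ on the strand of the motif in GRCm38 (mm10) and holds the 19 bases of the core, in capitals, with the 30 bases before it. The first 7 are the strongest sites of each gene, by pileup summed over the wild-type lists.
Epha4, 1.4 kb upstream of the start, chr1:77516442-77516490, minus strand: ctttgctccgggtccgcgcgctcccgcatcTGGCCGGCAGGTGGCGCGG
Pax3, 188.2 kb downstream of the start, chr1:78008918-78008966, minus strand: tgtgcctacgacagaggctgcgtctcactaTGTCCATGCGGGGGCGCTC
Ihh, 65.4 kb upstream of the start, chr1:75017053-75017101, minus strand: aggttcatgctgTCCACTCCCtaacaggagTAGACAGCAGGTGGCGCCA
Wnt6, 36.4 kb downstream of the start, chr1:74808299-74808347, minus strand: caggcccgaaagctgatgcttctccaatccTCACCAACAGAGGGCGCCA
Shh, 15.9 kb downstream of the start, chr5:28451338-28451386, plus strand: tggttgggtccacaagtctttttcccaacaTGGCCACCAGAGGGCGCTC
Lmbr1, 11.2 kb upstream of the start, chr5:29389530-29389578, plus strand: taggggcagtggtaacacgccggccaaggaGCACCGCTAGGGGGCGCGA
Myc, 1.9 kb upstream of the start, chr15:61983398-61983446, plus strand: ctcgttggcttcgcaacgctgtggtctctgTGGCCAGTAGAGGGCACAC

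A further 3 sites were listed in a different way in the 2 genotypes of at least 2 organs and carried a core motif. The sequences of these sites are as follows.
Epha4, 74.5 kb upstream of the start, chr1:77589622-77589670, minus strand: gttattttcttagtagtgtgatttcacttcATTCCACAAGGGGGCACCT
Pax3, 18.7 kb upstream of the start, chr1:78215750-78215798, plus strand: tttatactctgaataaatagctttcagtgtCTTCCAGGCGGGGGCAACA
Myc, 10.2 kb upstream of the start, chr15:61975172-61975220, plus strand: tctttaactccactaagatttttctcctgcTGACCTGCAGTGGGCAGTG

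The last 5 are the sites in introns 4 and 5 of Lmbr1 and the 3 sites whose upstream motif sat at the distance most common over the genome, and they were chosen after their values were seen. A second run of capitals, also present at the Ihh site 65.4 kb upstream, marks the upstream motif, a match to TGCAGTNCC with at most 2 mismatches in the 30 bases before the core.
Lmbr1, 42.3 kb downstream of the start, intron 4, chr5:29336034-29336082, minus strand: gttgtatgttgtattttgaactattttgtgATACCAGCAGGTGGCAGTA
Lmbr1, 85.0 kb downstream of the start, intron 5, chr5:29293393-29293441, minus strand: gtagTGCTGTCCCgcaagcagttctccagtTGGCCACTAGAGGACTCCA
Ihh, 2.7 kb downstream of the start, intron 1, chr1:74948972-74949020, plus strand: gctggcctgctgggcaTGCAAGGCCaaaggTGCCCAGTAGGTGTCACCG
Ihh, 2.7 kb upstream of the start, chr1:74954364-74954412, minus strand: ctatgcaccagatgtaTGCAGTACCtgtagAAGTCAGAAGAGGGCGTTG
Wnt6, 48.0 kb upstream of the start, chr1:74723889-74723937, plus strand: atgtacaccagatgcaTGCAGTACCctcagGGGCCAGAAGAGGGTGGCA

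The 6 lists differed in length and background, which bears on every count below. The lists held between 11515 and 44386 regions, with the shortest in mutant heart and the longest in wild-type lung, and relative depth ran from 7.14 to 9.27 reads per kb. Read numbers at a site are given as summit pileup, the count of extended fragments over the summit, recovered from the fold enrichment and p-value of each peak. In wild-type lung the local background was raised, with a median of 2.38 times the genome-wide background over all peaks and 2.55 times over the peaks of these loci, against 1.04 to 1.18 times over all peaks of the other 5 lists. The lowest pileup listed was 7 to 9 reads in every list, and a site without a peak may still hold CTCF below the calling threshold.

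Pooled over the windows there were 3.41 sites per 100 kb, against 2.06 per 100 kb over the genome, but density was uneven. It was above the genome value around 3 genes, with 9.37 sites per 100 kb for Wnt6, 8.24 for Ihh and 2.85 for Shh. Around the other 4 it was below, with 2.01 for Lmbr1, 1.95 for Myc, 1.72 for Epha4 and 1.35 for Pax3. The windows of Ihh and Wnt6 hold other protein-coding genes, among them the ligand gene Wnt10a and the neuronal genes Fev and Cdk5r2, whereas those of Epha4, Pax3 and Myc hold none. Wild-type brain listed 38 of the 61 sites and mutant brain listed 41. Wild-type heart listed 22 and mutant heart 11. Wild-type lung listed 48 and mutant lung 34. In all 3 wild-type lists 22 sites were present (36.1%, against 34.8% of all sites), and 10 were present in all 6 lists (16.4% against 18.6%). A single list held 20 of the sites, of which 11 were in wild-type lung with 7 to 31 reads, 6 in mutant brain with 9 to 24 reads, 2 in wild-type brain and 1 in mutant lung. Without the wild-type lung list, 50 sites remained.

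**Figure D1:**
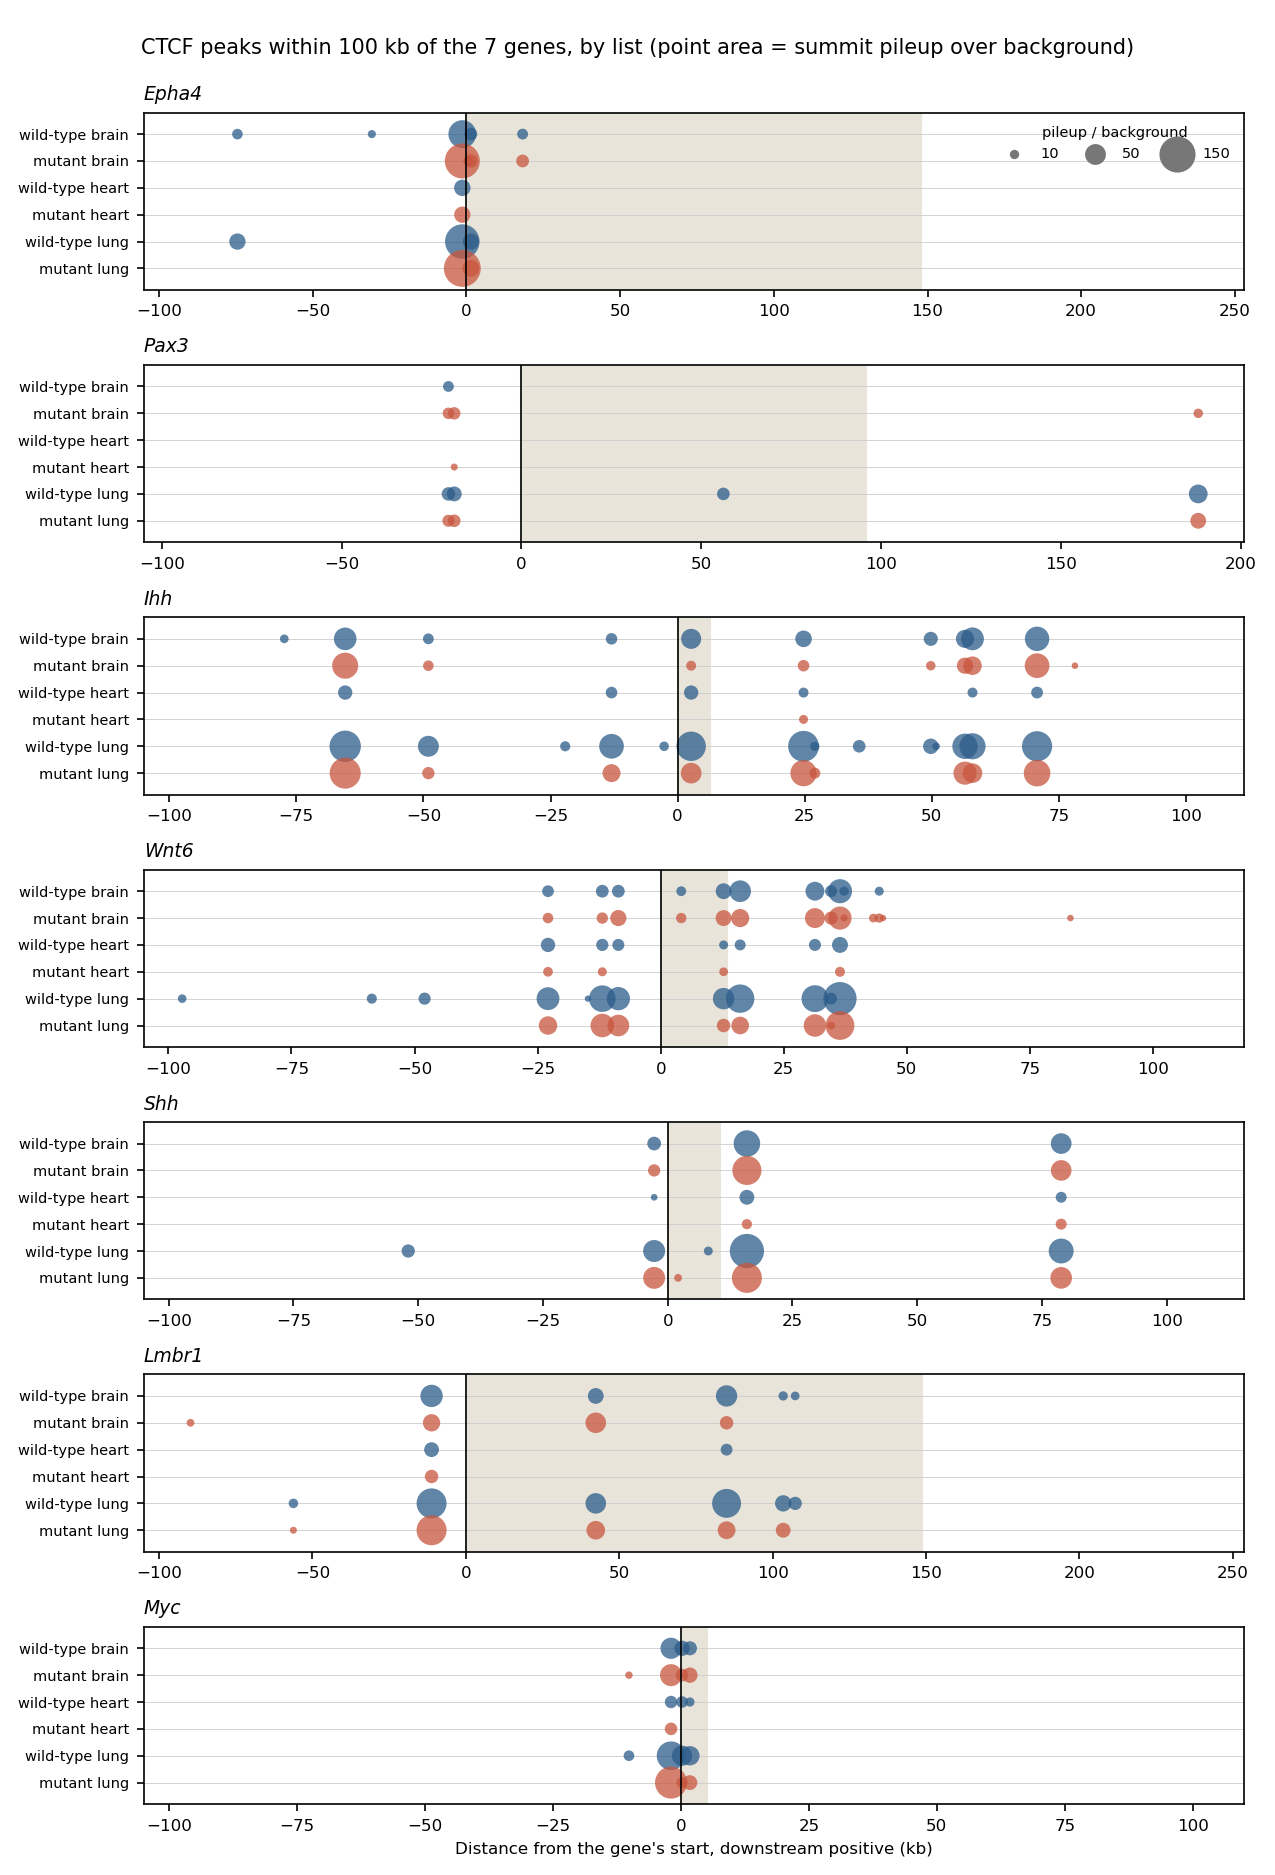
Positions of the CTCF peaks around each gene, 1 row per peak list, with distance from the start of the gene in kb on the horizontal axis (downstream positive), the gene body shaded and point area proportional to summit pileup over the genome background of the list. Sites in the windows of both Ihh and Wnt6 are drawn under the gene with the nearer start. A point recurs in all 6 rows next to the starts of Epha4 and Myc, while the mutant heart row of Ihh holds 1 point.

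The question put to these loci was how many wild-type peaks were still listed in the mutant. In brain, 32 of 38 wild-type peaks were overlapped by a mutant peak, which is 84.2% with an exact Clopper-Pearson 95% interval of 68.7 to 94.0%. Over all wild-type brain peaks the share was 81.5%, and 6 peaks of these loci had no mutant peak. In heart, 10 of 22 were overlapped, or 45.5% with an interval of 24.4 to 67.8%. Over all wild-type heart peaks it was 50.6%, and 12 peaks of these loci had no mutant peak. In lung, 33 of 48 were overlapped, or 68.8% with an interval of 53.7 to 81.3%. Over all wild-type lung peaks it was 67%, and 15 peaks of these loci had no mutant peak. In each organ the share over all peaks lay inside the interval of these loci, so these pooled counts resolved no difference from peaks elsewhere. The intervals cover counting error only and take peaks as independent, although many lie in the same locus. Ihh and Wnt6, whose windows overlap, held 6 and 8 of the 22 wild-type heart peaks. The site 70.7 kb downstream of Ihh is counted under both. The pooled share thus leans on that region. With 1 library a group no test between genotypes was made.

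In the opposite direction, 9 of 41 mutant brain peaks had no wild-type counterpart, with 24.5% as the share over the list. The mutant brain peaks without a counterpart had 9 to 36 reads. Mutant heart had 1 such peak of 11, against 7.12% over the list, and mutant lung had 1 of 34, against 9.11%. Peaks without a mutant counterpart were mostly weak in brain and lung. Wild-type brain peaks that were overlapped had a median of 49 reads and those that were not had 16, with a range of 13 to 26. In lung the medians were 107 and 20 reads, and the range of those not overlapped was 7 to 47. In heart the medians were closer, 36 reads and 27.5 reads, and the wild-type peaks without a mutant peak ran from 9 to 41. Over all peaks the same medians were 50 and 19 reads for brain, 36 and 22 for heart, and 92 and 22 for lung.

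**Figure D2:**
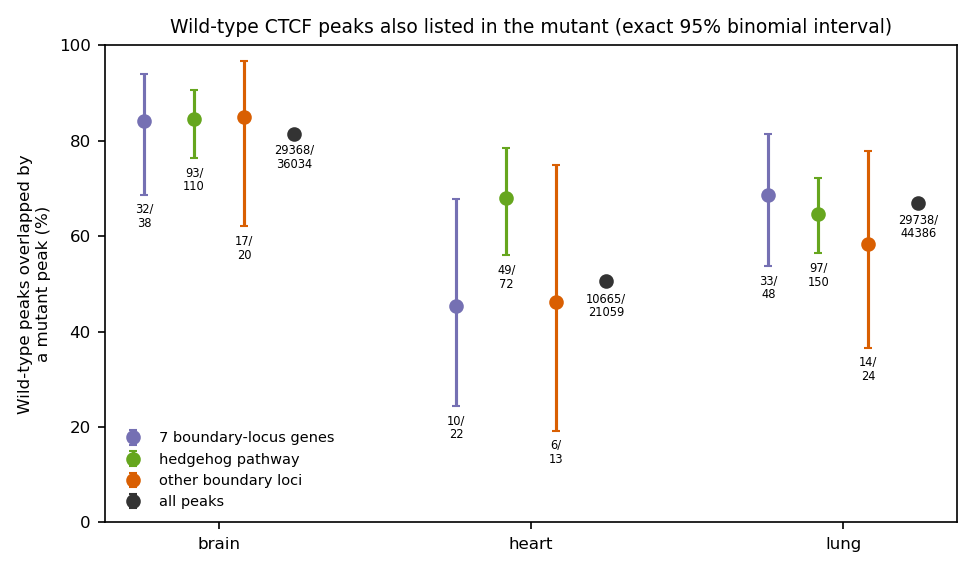
Percent of wild-type peaks overlapped by a mutant peak in each organ for the 7 genes, the 14 genes of the hedgehog pathway list, the list of 6 other boundary genes and all peaks, with exact 95% binomial intervals as bars and the counts printed under each point. The 7 genes sit at 84.2% for brain, 45.5% for heart and 68.8% for lung, and their bars include the point of all peaks in each organ.

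Since Shh and Ihh are hedgehog ligands, the windows of 14 other genes of that pathway, which include the receptor Ptch1, the transducer Smo and the Gli transcription factors, were counted in the same way. A mutant peak overlapped 93 of 110 wild-type peaks in brain, 49 of 72 in heart and 97 of 150 in lung. These are 84.5%, 68.1% and 64.7%, against 81.5%, 50.6% and 67% over all peaks. The heart interval, 56.0 to 78.6%, did not include the share over all heart peaks. Around the list of 6 other boundary genes (Sox9, Kcnj2, Six2, Six3, Pitx1 and Tfap2a) the counts were 17 of 20 for brain, 6 of 13 for heart and 14 of 24 for lung. Differences between the lists were not tested.

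Where a site was listed in both genotypes of an organ, the pileup over the genome background of each list was compared as a log2 ratio of mutant to wild type. No spike-in factor entered these ratios. The study's authors scaled their signals by the spike-in and reported weaker CTCF binding at many sites in all 3 organs. Whether that scaling would change the ratios given here was not tested. In brain the median over 32 sites of these loci was 0.01, with -0.04 over 28896 sites in all. In heart it was -0.29 over 10 sites, with -0.25 over 10609. In lung it was -0.41 over 33 sites, with -0.36 over 29221. A ratio at least 2-fold lower in the mutant was found at 4 of 32 brain sites, 3 of 10 heart sites and 7 of 33 lung sites. The shares over all shared sites were 11.3% for brain, 7.12% for heart and 20.9% for lung. A ratio at least 2-fold higher was found at 0 sites in each organ, with shares over all shared sites of 3.19% for brain, 0.17% for heart and 0.524% for lung. The choice of scale moved these counts. With the pileup taken as it is, the median over all shared sites became 0.21 for brain, -0.11 for heart and -0.46 for lung. At least 2-fold lower were then 2 of 32 brain sites, 1 of 10 heart sites and 9 of 33 lung sites, and 1 brain site was 2-fold higher. The shares of lower sites over all shared sites were then 7.08% for brain, 4.71% for heart and 24.7% for lung. On the authors' fold enrichment, which divides by the local background that was raised in wild-type lung, the lung median turned to 0.73 at these loci and 0.61 over all shared sites. On that scale 22 of the 33 lung sites were higher in the mutant, among them 17 of the 28 with lower pileup over background. This turn is not repeated at every lung value below. Of the 7 lung sites with at least 2-fold lower pileup, 4 were still lower. These lay 49.0 kb upstream of Ihh (77 reads in wild type and 25 in mutant) and 12.8 kb downstream of Wnt6 (81 and 30). The others lay 34.6 kb downstream of Wnt6 (25 and 10) and 0.2 kb downstream of Myc (72 and 21). In brain and heart all 4 and all 3 sites with at least 2-fold lower pileup remained lower, with medians over these loci of 0.087 and -0.29. Fewer were at least 2-fold lower in fold enrichment itself, with 2 sites in brain, 1 in heart and 0 in lung.

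**Figure D3:**
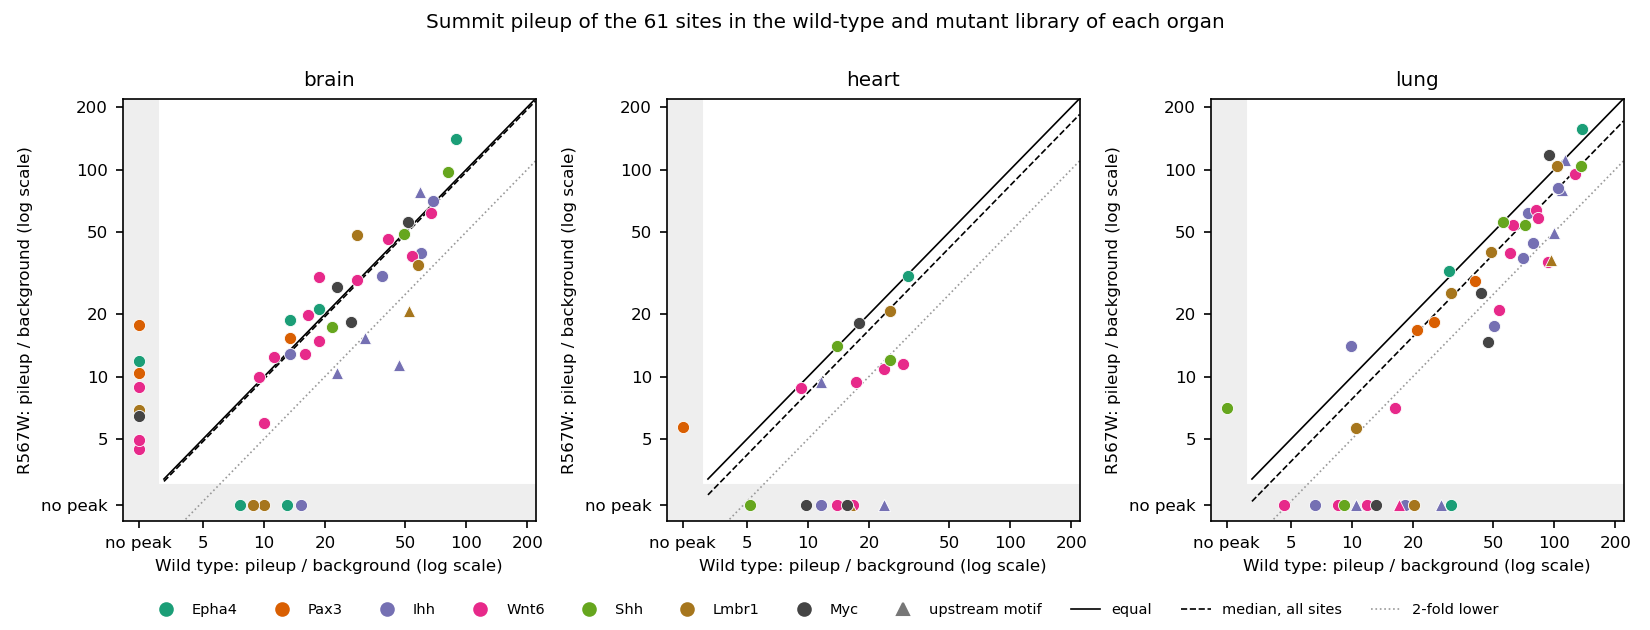
Summit pileup over genome background in wild type (horizontal) and R567W mutant (vertical) for each site, 1 panel per organ, both axes logarithmic, with sites lacking a peak drawn in the grey margins and triangles marking sites with an upstream motif. The solid line marks equality, the dashed line the median ratio of all shared sites and the dotted line a 2-fold lower mutant value. In heart 12 points lie in the lower margin, and they include sites of up to 41 reads in wild type.

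At Epha4, the strongest site lay 1.4 kb upstream of the start in an exon of the gene model Gm28386 and was listed in all 6 lists. Wild-type brain had 152 reads there and mutant brain 285, while heart had 54 and 59 and lung 209 and 223. The log2 ratio was 0.66 in brain with a counting interval of 0.37 to 0.95, against -0.02 in heart and 0.19 in lung. On this scale, which has no spike-in factor, its pileup was not lower by more than counting error in any organ. The site 74.5 kb upstream (chr1:77589381-77589750, intergenic) had 22 reads in wild-type brain and 47 in wild-type lung and no peak in the other 4 lists. Next to the start, 0.7 kb inside the gene in intron 1, a peak of 24 reads was listed in mutant brain alone. Wild-type brain listed 5 sites around Epha4 and mutant brain 4, and both heart lists held only the strongest.

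Pax3 was the most sparsely bound of the genes, with no site in wild-type heart. The site nearest its start, 18.7 kb upstream (chr1:78215580-78216143), had no peak in wild-type brain or heart and 36 and 11 reads in the mutant libraries of those organs. In lung it had 39 reads in wild type and 26 in mutant. The strongest site, 188.2 kb downstream of the start and 92.3 kb beyond the end of the gene (chr1:78008778-78009137), had 62 reads in wild-type lung, 41 in mutant lung and 21 in mutant brain. Mutant brain thus held 3 sites around Pax3 and wild-type brain 1. The 36 reads of the upstream site were close to the median of 34 over all mutant brain peaks, while its 11 reads in mutant heart were below the median of 31 there. The part of the calling threshold in these differences was not tested.

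Around Ihh, wild-type brain listed 10 sites and mutant brain 10, wild-type lung 14 and mutant lung 9, and wild-type heart 6 and mutant heart 1. The strongest site lay 65.4 kb upstream of the start in intron 2 of Nhej1 (chr1:75016669-75017531), a gene for DNA end joining whose introns hold Ihh enhancers. It had 100 reads in wild-type and 158 in mutant brain, 173 and 158 in lung, and 41 in wild-type heart with no peak in the mutant. In brain and lung its pileup over background, without a spike-in factor, was therefore not lower by more than counting error in the mutant. The log2 ratios were 0.41 and -0.03. The site in intron 1 of Ihh itself, 2.7 kb downstream of the start (chr1:74948707-74949463), gave another picture. It had 79 reads in wild-type and 23 in mutant brain, 152 and 70 in lung, and 41 in wild-type heart with no mutant peak. The log2 ratio was -2.03 in brain with a counting interval of -2.76 to -1.34, the lowest of the 32 brain ratios at these loci, and -1.02 in lung with an interval of -1.45 to -0.60. The pileup was thus lower in mutant brain and lung, and in heart the mutant library listed no peak. The authors' fold enrichment was also lower in mutant brain (17.3 and 6.52), but in lung it was 11.4 in wild type and 23.8 in mutant, so the lung direction depends on the scale.

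Of the other Ihh sites without a mutant peak in some organ, those present in at least 2 wild-type lists are given next. The site 13.0 kb upstream, which held no core motif, had 26 reads in wild-type brain and 27 in wild-type heart with no mutant peak in either, and 107 reads in wild-type and 53 in mutant lung. At 49.8 kb downstream, wild-type and mutant brain had 39 and 21 reads, and wild-type lung had 42 with no mutant peak. The site 58.0 kb downstream, at the promoter of the lens gene Cryba2, had 102 and 80 reads in brain, 20 reads in wild-type heart with no mutant peak, and 120 and 63 in lung. The site 70.7 kb downstream, which also lies in the window of Wnt6, had 117 and 142 reads in brain, 28 in wild-type heart with no mutant peak, and 160 and 116 in lung. These 4 sites were named because a mutant peak was missing in some organ, so their absence from mutant heart follows in part from that choice. In lung the pileup was lower in the mutant at the 3 sites listed in both genotypes. On the authors' fold enrichment the lung direction turned at 58.0 kb (11.7 in wild type and 26.4 in mutant) and at 70.7 kb (12.2 and 48.3). A further 5 Ihh sites were listed in a single wild-type library and not in the mutant, with 10 to 28 reads. Among them, the site nearest the start, 2.7 kb upstream, was found in wild-type lung alone with 16 reads. Mutant brain alone listed a weak site 78.1 kb downstream with 10 reads.

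Around Wnt6 the lists diverged by organ, with wild type and mutant at 12 and 16 sites for brain, 8 and 4 for heart, and 13 and 9 for lung. The strongest site lay 36.4 kb downstream of the start (chr1:74807736-74808544), between genes, beyond Wnt10a. Brain had 114 reads there in wild type and 125 in mutant, heart had 51 and 22, and lung had 194 and 136. In heart the log2 ratio was -1.36 with a counting interval of -2.15 to -0.61, and in brain it was -0.11. The site 16.1 kb downstream had 92 and 77 reads in brain, 24 in wild-type heart with no mutant peak, and 142 and 51 in lung, a log2 ratio of -1.38 in lung, where the authors' fold enrichment turned to 11.3 in wild type and 20.1 in mutant. The site 31.3 kb downstream, in an exon of Wnt10a, had 70 and 93 reads in brain, 29 in wild-type heart with no mutant peak, and 127 and 83 in lung. The site 8.6 kb upstream had 32 and 61 reads in brain, 29 in wild-type heart with no mutant peak, and 95 and 77 in lung. These 3 sites were named because mutant heart lacked them, and they kept a peak in mutant brain and lung. Of the 8 wild-type heart sites around Wnt6, 4 kept a mutant heart peak. Among those 4, the site 11.9 kb upstream had 30 and 18 heart reads and the site 12.8 kb downstream had 16 and 17. That site 12.8 kb downstream had 49 and 59 reads in brain, and 81 and 30 in lung. Its lung log2 ratio was -1.33 with a counting interval of -1.99 to -0.71. Its lung fold enrichment was also lower in the mutant, with 13.2 in wild type and 10.4 in mutant. At the promoter of Prkag3, 22.9 kb upstream of Wnt6, where the 3 organs had both genotypes, brain had 27 and 26 reads, heart had 41 and 21, and lung had 92 and 56. On the authors' fold enrichment the lung direction also turned here and at the sites 36.4 kb and 31.3 kb downstream and 8.6 kb upstream. The site nearest the start of Wnt6, 4.2 kb inside the gene, was listed in brain only, with 19 reads in wild type and 25 in mutant. Sites at 43.2, 45.2 and 83.2 kb downstream, the last at the promoter of the neuronal gene Cdk5r2, were listed in mutant brain alone with 18, 9 and 10 reads.

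At Shh, the 3 sites of all wild-type lists were kept in mutant brain and lung. The strongest, 15.9 kb downstream of the start (chr5:28451022-28451740), had 138 reads in wild-type brain and 197 in mutant, with 44 and 23 for heart and 206 and 148 for lung. Its log2 ratio was 0.27 in brain and -0.38 in lung, and -1.08 in heart with a counting interval of -1.88 to -0.32. On the authors' fold enrichment the lung direction turned, with 15.1 in wild type and 57.6 in mutant. The site 78.8 kb downstream, in intron 12 of Rbm33, had 84 and 99 reads in brain, with 24 and 27 for heart and 109 and 77 for lung, and was listed in all 6 lists. The site 2.7 kb upstream (chr5:28469513-28470147), in a non-coding transcript beside Shh, had 37 and 35 reads in brain, 85 and 79 in lung, and 9 in wild-type heart with no mutant peak. That heart value lay at the lower end of its list, where the lowest pileup was 8 reads. A weak site in intron 1 of Shh, 2.1 kb inside the gene and nearest its start, was listed in mutant lung alone with 10 reads.

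Lmbr1 starts 911 kb from Shh, and its body holds the limb enhancer of Shh in intron 5. The strongest site lay outside the gene, 11.2 kb upstream of the start (chr5:29389312-29389832), and was present in all 6 lists. Its pileup was 98 reads in wild-type brain and 70 in mutant, 44 and 40 for heart, and 158 and 148 for lung. Inside the gene, the site in intron 5, 85.0 kb from the start (chr5:29293128-29293855), had lower pileup in mutant brain and lung and was not listed in mutant heart. It had 89 and 42 reads in brain, 28 in wild-type heart with no mutant peak, and 147 and 52 in lung. The log2 ratios were -1.33 in brain with a counting interval of -1.90 to -0.79 and -1.40 in lung with an interval of -1.88 to -0.93. The authors' fold enrichment was 29.9 and 14.2 in brain, and in lung it turned to 8.93 in wild type and 21.9 in mutant. The site in intron 4, 42.3 kb from the start (chr5:29335815-29336292, beside the start of the gene model Gm23801), did not share this pattern. It had 49 reads in wild-type and 98 in mutant brain, 74 and 57 in lung, and no heart peak in either genotype, and its log2 ratio was 0.75 in brain and -0.28 in lung. Of the weaker sites in intron 9, the one 103.4 kb from the start had 17 reads in wild-type brain, no mutant brain peak, and 47 and 36 in lung. The other, 107.4 kb from the start, had 15 reads in wild-type brain and 31 in wild-type lung, and no mutant peak. A site 89.8 kb upstream was listed in mutant brain alone with 14 reads.

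Myc had its sites within 10.2 kb upstream and 1.7 kb downstream of the start. The strongest, 1.9 kb upstream (chr15:61983078-61983754), was present in all 6 lists. Its pileup was 88 reads in wild-type brain and 113 in mutant, 31 and 35 for heart, and 144 and 168 for lung, with the mutant value the higher one in each organ. Its log2 ratios were 0.11, 0.03 and 0.32. The counting intervals all included 0, at -0.30 to 0.53 for brain, -0.71 to 0.77 for heart and -0.007 to 0.65 for lung. At the promoter itself, 0.2 kb downstream of the start (chr15:61985157-61985826), the reads were 46 and 37 in brain, 27 in wild-type heart with no mutant peak, and 72 and 21 in lung, with a log2 ratio of -1.68 in lung and a counting interval of -2.45 to -0.96. The site 1.7 kb downstream had 39 and 55 reads in brain, 17 in wild-type heart with no mutant peak, and 66 and 36 in lung. In lung, both sites downstream of the start were therefore lower in the mutant by more than counting error, and the upstream site was not. The interval at 1.7 kb, -1.40 to -0.17, included the median of -0.36 over all shared lung sites, so that site did not stand apart from them. A core motif was called at the upstream site and at 1.7 kb downstream, and not at the promoter site. The site 10.2 kb upstream had 13 reads in mutant brain and 20 in wild-type lung, and no peak in the other 4 lists.

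**Figure D4:**
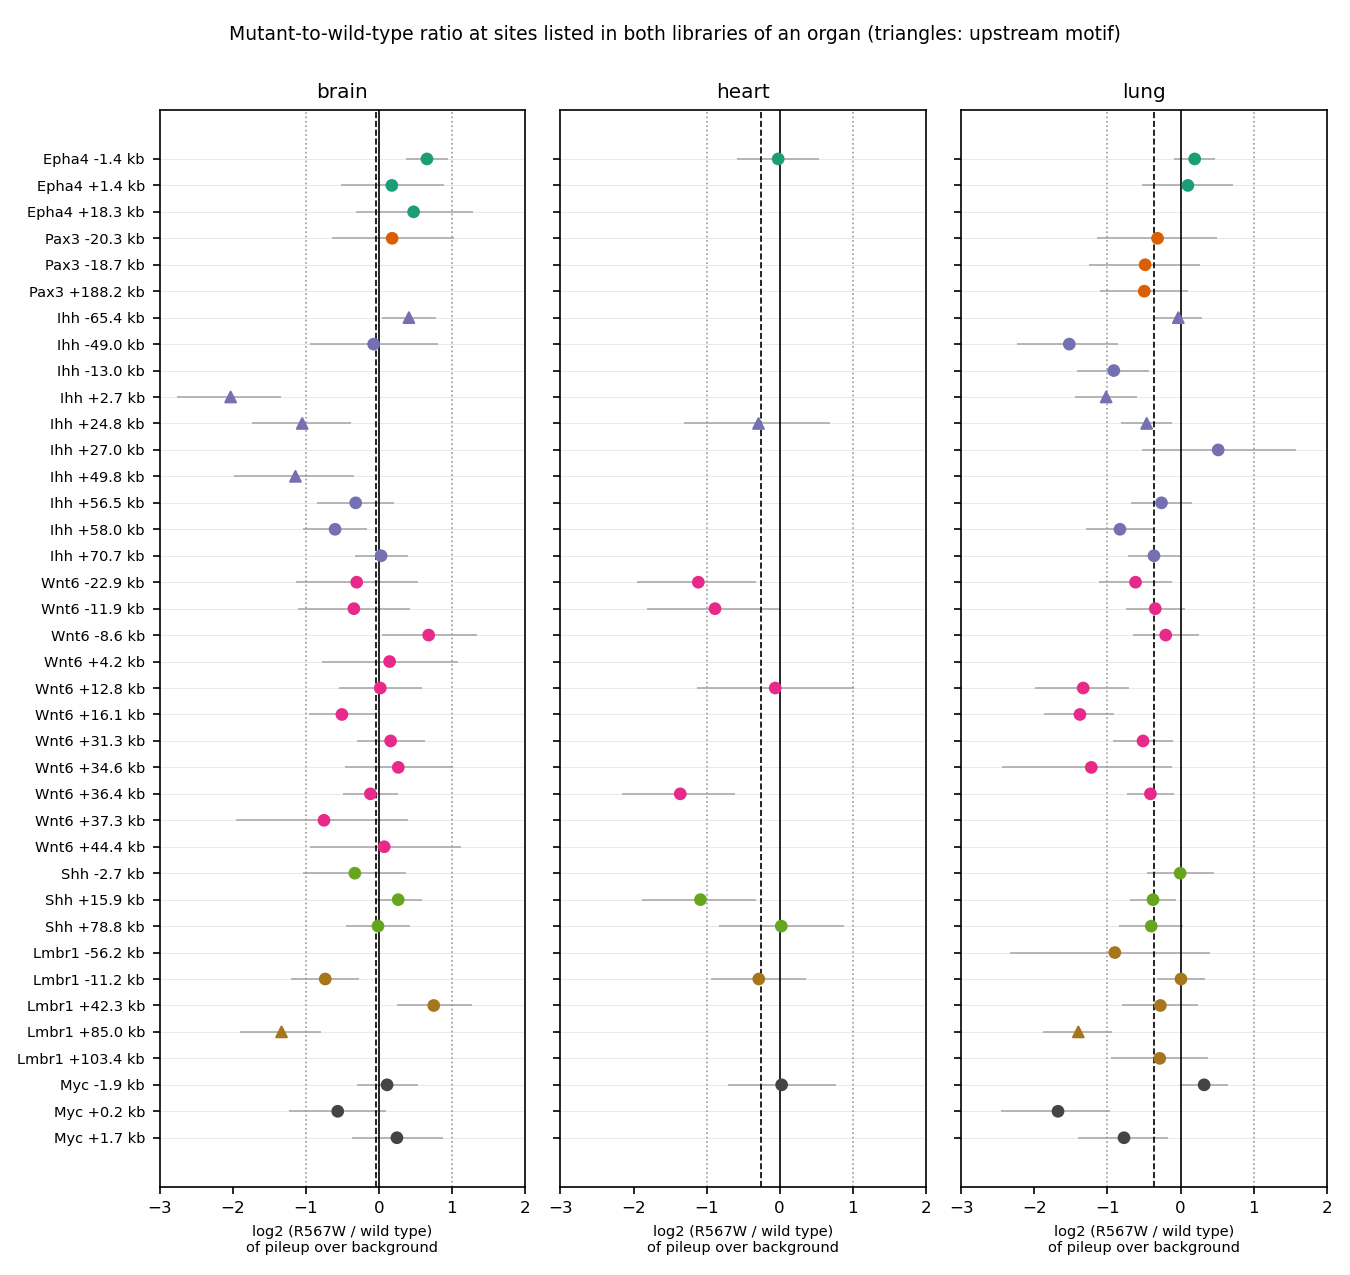
Log2 ratio of mutant to wild-type pileup over background for every site listed in both genotypes of an organ, with exact counting intervals as grey bars, the dashed line at the median of all shared sites of the organ and dotted lines at 2-fold differences. Triangles mark sites with an upstream motif. In brain the 4 points at or beyond 2-fold lower are triangles, at 3 sites of Ihh and in intron 5 of Lmbr1, while the fifth triangle, 65.4 kb upstream of Ihh, is at 0.41.

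The core motif, scored within 100 bp of the summit, was called at 44 of the 61 sites (72.1%, against 74.6% of all sites), 25 on the plus strand and 19 on the minus strand. Both Shh sites nearest the gene with a core, at 2.7 kb upstream and 15.9 kb downstream, had it on the plus strand, and the sites in introns 4 and 5 of Lmbr1 had it on the minus strand. Since Lmbr1 lies at higher coordinates, these motifs face each other. Others did not follow this pattern, since the Shh site 78.8 kb downstream was on the minus strand and the strongest Lmbr1 site, 11.2 kb upstream, on the plus strand, and the Shh window held 2 cores on each strand. The 3 core motifs around Myc were all on the plus strand, that of the gene, and the 2 around Epha4 were on the minus strand, also that of the gene.

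The zinc finger that carries R567 belongs to the part of CTCF that reads an upstream motif, so the sites were split by it. An upstream motif was called at 7 of the 44 sites with a core (15.9%, against 27.1% over the genome), of which 5 were in the window of Ihh, 1 in that of Wnt6 and 1 in Lmbr1 intron 5. A mirrored window downstream of the core also gave 7 calls (15.9%, against 13.3% over the genome), so at these loci the calls were no more frequent than in the mirrored window. In brain, 5 of the 7 had a wild-type peak and all 5 kept a mutant peak, and 4 of these 5 were at least 2-fold lower, against 17.8% of all shared sites with an upstream motif and 9.11% of those with a core alone. Of the 20 brain sites at these loci with a core alone in both lists, 0 were at least 2-fold lower. The same split gave 0 of 1 and 2 of 8 in heart, and 2 of 4 and 4 of 23 in lung. In heart, 1 of 4 wild-type sites with an upstream motif kept a mutant peak, against 8 of 14 with a core alone. Over all sites these shares were 46.3% and 56.5%. In lung the counts were 4 of 7 and 23 of 31, against 64.8% and 74.7% over all sites. On the scale without division by the background, the brain sites at least 2-fold lower were the one in Ihh intron 1 and the one in Lmbr1 intron 5.

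The distance between the motifs was also examined. Over all sites with at most 1 mismatch in the upstream motif, 81.4% had a gap of 5 bases before the core. At these loci 3 sites had that gap, in Ihh intron 1, at 2.7 kb upstream of Ihh and at 48.0 kb upstream of Wnt6. The last 2, with 0 mismatches each, were listed in wild-type lung alone with 16 and 26 reads, and their printed sequences match at 35 of 49 bases. All 3 had a wild-type lung peak and 1 kept a mutant one, against 57.8% of all sites with this gap, and the kept one, in Ihh intron 1, had the lowest ratio in brain. The site in Lmbr1 intron 5 had 1 mismatch and a gap of 17 bases.

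A window of 100 kb is an arbitrary limit, and sites just beyond it exist. The outermost site inside the Shh window lay 68.4 kb from the gene, and the next one outside lay 127 kb away with 18 reads in wild-type brain and 50 in wild-type lung. For Myc the next site outside was 220 kb away, listed in mutant lung alone. For Ihh it lay 101 kb away and was listed in 5 lists, with 70 and 109 reads in brain, 23 in wild-type heart and 90 and 86 in lung, without a mutant heart peak. For Lmbr1 the next site, 101 kb away, ran the other way in heart, with 19 reads in the mutant and no wild-type peak, beside 27 and 19 in brain and 44 and 35 in lung.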

How the data were processed

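Peaks of CTCF ChIP-seq in 6 libraries (brain, heart and lung at E18.5, wild type or homozygous R567W, 1 library each) were analysed. The 6 input samples had no file of their own and were not analysed here. Per the labels and methods, the authors used Trim Galore for trimming, Bowtie2 for alignment to joined mouse and human genomes and MACS2 for peak calling in each library. Which input served as control was not given in the sources used here. No use was made of the deposited score, a whole number that follows the q-value. Fold enrichment, as deposited, is a ratio of summit pileup to local background, each with a pseudocount of 1, and the deposited p-values and q-values are −log10 values.

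Summit lines of the same region were joined, and regions of the 6 lists sharing at least 1 bp were merged into sites. Pileup and local background were recovered from fold enrichment and p-value together, with pileup as a whole number and background as a fraction. This was possible for 100% of regions in every list within a relative tolerance of 0.0001, and pileup was divided by the lowest background of its list. Depth is relative, since read totals were not used. Genes came from GENCODE M21 on GRCm38. The core motif was scored with a 19-column matrix learned from wild-type brain (its 2000 most enriched peaks), at p of 0.0001, and the upstream motif allowed 2 mismatches. The recovery and motif steps were tested on simulated data. Shares have exact Clopper-Pearson 95% intervals, and ratios have intervals from the exact binomial interval of their 2 counts. Both cover counting error only, and the interval of a ratio takes the background as known. With 1 library a group no test was made. Promoter means within 1 kb of a transcript start.

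The genes, lists and rules were chosen with earlier results of these data known. Sites named in full were the nearest and the strongest of each gene, those of at least 2 wild-type lists missing from the mutant list of at least 1 of those organs, and those listed in mutant lists alone. Others named, because of their intron, motif, ratio or kept heart peak, were chosen after their values were seen. Alternatives were windows of 50 and 200 kb, summits within 200 bp, a −log10 q of at least 5, lists of equal length, stricter motif calls and a mirrored motif window. Computation used numpy 2.4.6, scipy 1.17.1 and pandas 2.3.3 under Python 3.11.15, with matplotlib 3.10.9 for plots.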

Additional observations from a re-analysis of the deposited data

Results flagged for a closer look

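Pooled over the genes, the number of sites listed moved in opposite directions in different organs. Over the 7 genes, the mutant library minus the wild-type one gave 3 sites in brain, -11 in heart and -14 in lung. Around Wnt6 the values were 4, -4 and -4, around Myc they were 1, -2 and -1, and around Pax3 they were 2, 1 and -1. Around Epha4, Ihh, Shh and Lmbr1 no organ listed more sites in the mutant than in wild type. With 1 library per organ and genotype these differences were not tested. Over all regions the brain list was also longer in the mutant (38390 against 36034), and the heart and lung lists were shorter (11515 against 21059, and 32498 against 44386).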

How the results depend on the processing

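In all, 30 alternatives to the 3 shares, the site and motif counts and the median ratios were run. The number of sites, 61 in the main setting, was 47 with 50 kb windows and 82 with 200 kb windows. The number of sites with a core motif was 44, and 33 at a stricter p of 1e-05. With each pair of lists cut to equal length, the lung share with a mutant peak was 83.3%, close to the 81.1% then found over all lung peaks. The lung share thus moved with list length at these loci and over all peaks. Under that setting the heart share at these loci was 41.7% (5 of 12), while over all heart peaks it was 71.3%, against 50.6% in the main setting. The gap in heart was thus wider than in the main setting, on 12 peaks, and was not tested. With at most 1 mismatch, or at the commonest spacing, the number of sites with an upstream motif was 3. The median log2 ratio without division by the background was 0.25 for brain, -0.14 for heart and -0.51 for lung. From the authors' fold enrichment it was 0.087, -0.29 and 0.73, so the lung ratio turned positive, beside the raised local background of wild-type lung, and the cause was not tested. The scales, the spacing and the list left out were chosen after seeing the data. Pairing by replicate number could not be made, as the labels carry none. Genotypes could be paired by organ, which was not done, since an exact two-sided sign-flip test over 3 organs cannot go below 0.25. Depth limits weak sites, since the lowest listed pileup was 7 to 9 reads.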
